A study of Mus musculus with 6 samples.

Results

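Splicing factors and hnRNP proteins were examined at the transcript level in mouse zygotes. The members were the 68 protein-coding genes whose symbol begins with Srsf, U2af, Sf3a, Sf3b, Snrp, Prpf or Hnrnp, out of 36065 genes in the deposited table, 21785 of them protein-coding. They comprised 11 Srsf, 3 U2af, 3 Sf3a, 6 Sf3b, 12 Snrp, 13 Prpf and 20 Hnrnp genes, and the rule used symbols and no measured value. All libraries came from wild-type 1-cell embryos cultured in vitro. The CBR+SAM group received CBR-5884, an inhibitor of serine metabolism, together with S-adenosylmethionine, the methyl donor used by most methyltransferases. The CBR group received CBR-5884 and the DMSO group received the solvent, with 2 biological replicates in each of the 3 groups. The study asked what serine metabolism does during zygotic development. The dose, the hours of culture and the number of embryos behind each library are not given in the sources used here.

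Introns are removed by the spliceosome, which is assembled on each transcript from small nuclear ribonucleoproteins (snRNPs). Each spliceosomal snRNP other than U6 carries a ring of Sm proteins around its RNA, and the U2 snRNP uses the SF3A and SF3B complexes to hold the branch site, next to the U2AF dimer at the 3′ splice site. SR proteins, encoded by Srsf genes, mostly promote the use of nearby splice sites, while hnRNP proteins coat nascent RNA and often oppose it. The fully grown oocyte is transcriptionally silent, so the zygote begins with a stored maternal mRNA pool, and in mouse the first zygotic transcripts are spliced poorly. Stored oocyte mRNAs are often regulated through the poly(A) tail, by way of the polyadenylation signal and cytoplasmic polyadenylation elements (CPEs) in the last bases of the 3′ untranslated region (UTR).

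The 3′ ends of members with very high or very low levels are shown here because the members' most visible feature was a wide spread of levels within single complexes, and these signals govern the poly(A) tail from which this kit primes cDNA. Each line is a 30-base stretch of the 3′ UTR, 5′ to 3′ on the gene's strand, from GENCODE M21 transcripts (build mm10), and capitals mark the polyadenylation signal (AATAAA or ATTAAA) and, where one is present, a CPE (TTTTAT).
Snrpe: gcacattattattaggtgacAATAAAtgct
Snrpd3: ttggtttaTTTTATtgtattAATAAAtggt
Snrpb2: caaagacttacttttttccaAATAAAagta
Snrpb: ggcctatgaagctggtttatAATAAActaa
Sf3b1: gcatcaagtaccaccagataAATAAAactt
Prpf6: gtcttttactcATTAAAggtTTTTATagag
Prpf8: cctgaacaaaatgtAATAAATTTTATaaat
Hnrnpc: aagcagttgggaaatttgagAATAAAgact

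In mm10, Snrpe lies at chr1:133603871-133610291 and Snrpb at chr2:130171414-130179403, both on the minus strand. Prpf6 lies at chr2:181591868-181655660 and Prpf8 at chr11:75486816-75509449, both on the plus strand. All stretches shown hold a polyadenylation signal, among them Snrpe, the member with the highest mean, and Snrpb, which was low. Within the last 40 bases, no signal was found for Snrpg and Hnrnpk, which were high, or for Snrpd2 and Hnrnpll, which were low. Prpf6 and Prpf8 both held a CPE beside their signal and differed widely in level in every library. Over all 68 members, 11 (16.2%) had TTTTAT or TTTTAAT on the sense strand within the last 100 bases, against 19.7% of 10751 tested protein-coding genes with a 3′ UTR of at least 50 bases. They included Hnrnpd, Hnrnpll, Prpf6, Prpf8, Sf3a1, Sf3a3, Sf3b1, Snrpa1, Snrpd3 and Srsf4. A signal of either spelling lay within the last 40 bases in 52 members (76.5%), against 77.0% of those protein-coding genes. The median level was 90.1 among members with a CPE and 27.4 among those without, and the same medians over all those genes were 14.2 and 9.77. These are matches of letters and not tests of regulation.

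Levels below are the deposited abundance signal, a value per gene and library. It is divided by transcript length and sums to nearly the same total in every library, and genes are set beside one another on that scale. Poly(A) tail length, overlapping genes and near-identical records can also affect ratios between genes, and their part was not tested. A library gave 956209 to 1059424 units in all, and the members together took 0.941% to 0.988% of them. The values resemble TPM, a unit that scales transcript abundances to a fixed total. The number of reads was not given, but low values of single-transcript genes fell on steps of about 0.0403 to 0.0492 units per read for a transcript of 1000 bases. That step is an approximation, because multiples of it also met the values. Since every library was made from whole zygotes in bulk, a change in all zygotes and a larger change in some cannot be told apart.

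The libraries carried the marks of eggs and zygotes. All 12 oocyte and zygote markers passed the filter on low values, with summed levels of 40719 and 50300 in CBR+SAM zygotes, 42906 and 43919 in CBR zygotes, and 40224 and 39027 in DMSO zygotes. Cumulus and granulosa markers summed to 616.3 and 237.1 in CBR+SAM, 580.3 and 580.1 in CBR, and 532.9 and 508.6 in DMSO zygotes, of which nearly all was Serpine2; Inha was at 0 in every library and 2 of the 11 passed the filter. Sperm markers summed to 11.5 to 16.3 and blood markers to 0 to 0.701 over the libraries. Replicate 2 of the CBR+SAM group stood apart from the rest: its log2 values correlated with those of the other libraries at 0.955 to 0.971 (Pearson, across 5939 genes with a mean of at least 10), against 0.978 to 0.992 among the other 5 libraries. Its cumulus marker sum, nearly all Serpine2, was also the lowest and its oocyte marker sum the highest. The oocyte markers did not move together. Zp1, Dppa3, Btg4, Omt2b and Oosp1 were highest in that library, whereas Bmp15, Zp2 and Nlrp5 were lowest in it. The part of these shifts in the values given here was not tested.

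Most members were well above the middle of the transcriptome. The median over the 68 members' mean levels was 29.6, against 10.4 for 11019 tested protein-coding genes. In all, 53 members lay above that median and 16 lay in the highest 10% of those genes. Levels of at least 100 units were found for 21 members and of at least 500 for 6, namely Snrpe, Snrpg, Snrpd1, Snrpb2, Snrpd3 and Hnrnpc. A mean under 10 was found for 15 members. Of these, Srsf12 (0.0427 to 0.486) and Prpf40b (0.130 to 1.11) did not reach 1 unit in 2 libraries and were not tested, which left 66 tested members.

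**Figure D1:**
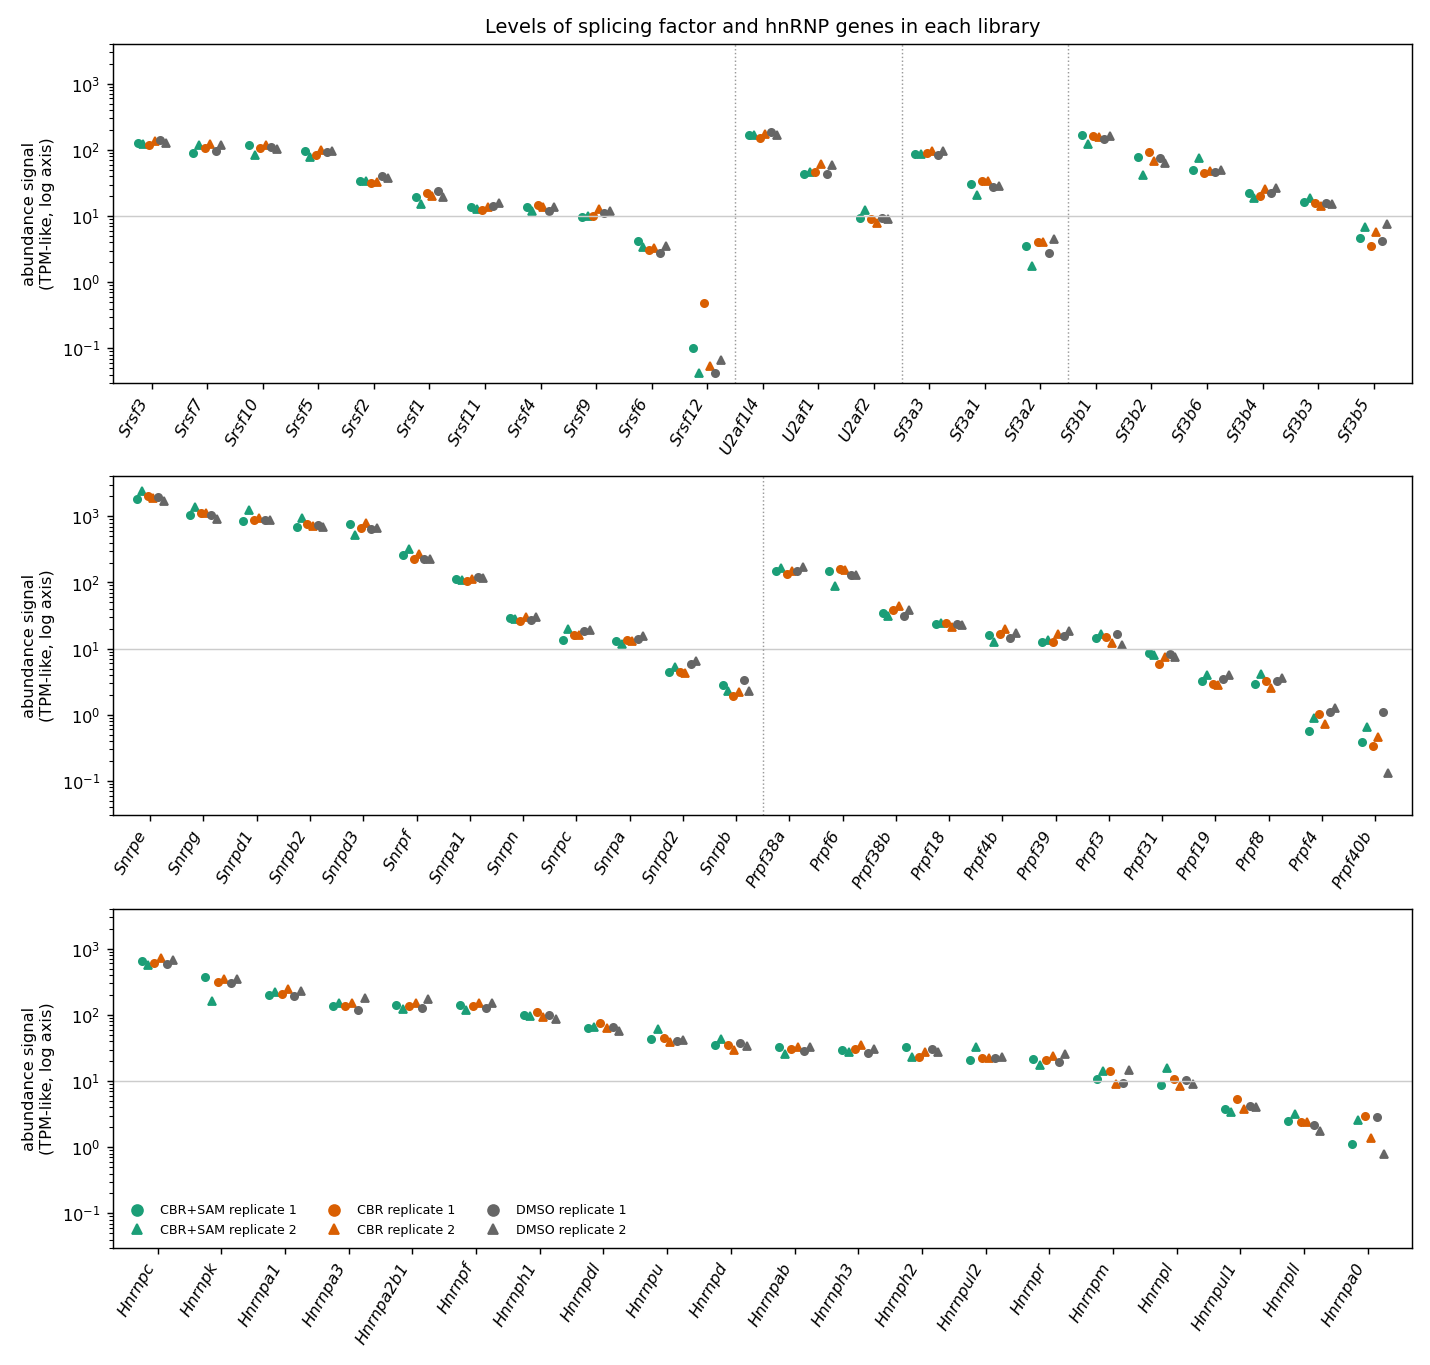
Abundance signal of the members (68 less 1 not reported here) in each of the 6 libraries on a log axis, ordered within each family by mean level, with 1 point per library, colours for the groups and shapes for the replicates. Points of a gene sit close together while genes of a family spread widely, as for Snrpe (mean 1970) and Snrpb (mean 2.48), and the grey line marks 10 units.

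The snRNP proteins held both the highest and some of the lowest levels. Within the Sm ring, the E, G, D1 and D3 genes were very high and the B and D2 genes very low. Snrpe, for Sm protein E, had 1844 and 2374 units in CBR+SAM zygotes, 2035 and 1887 in CBR zygotes, and 1970 and 1707 in DMSO zygotes. Snrpb, for Sm protein B, had 2.83 and 2.27 units in CBR+SAM, 1.94 and 2.22 in CBR, and 3.34 and 2.29 in DMSO zygotes. The 2 genes encode proteins of the same ring, and Snrpe exceeded Snrpb by 589.8 to 1050-fold within single libraries.

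Sm protein D2 was similarly low, although it pairs with D1 in the ring. Snrpd2 had 4.37 and 5.34 units in CBR+SAM, 4.36 and 4.27 in CBR, and 5.78 and 6.46 in DMSO zygotes, and Snrpe exceeded it by 264.3 to 467.3-fold. Its partner Snrpd1 had 840.8 and 1266 units in CBR+SAM, 889.3 and 956.6 in CBR, and 868.3 and 869.5 in DMSO zygotes. Both CBR values of Snrpd1 lay just above its DMSO values, and the CBR+SAM values lay on either side of them. Snrpd3, which pairs with B, had 758.7 and 523.7 units in CBR+SAM, 674.2 and 780.9 in CBR, and 640.3 and 669.2 in DMSO zygotes. It shared with Snrpd1 the higher CBR values, but its second CBR+SAM library was the lowest of the 6.

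Snrpn encodes Sm protein N, a close relative of B that takes its place in the ring and is abundant in brain. It had 29.0 and 28.5 units in CBR+SAM, 26.0 and 30 in CBR, and 27.2 and 30.1 in DMSO zygotes, 8.15 to 13.5 times the level of Snrpb. All 6 values lay close together. The deposited table also lists Snurf, which shares exons with Snrpn on the same strand because both are read from a bicistronic transcript, at 30.7 and 21.4 in CBR+SAM, 22.1 and 35.4 in CBR, and 19.9 and 34.5 in DMSO zygotes. How reads were divided between the 2 records cannot be told apart from their levels.

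Proteins that belong to single snRNPs were also spread. The U2 pair, which binds U2 RNA as a dimer, was high: Snrpb2 had a mean of 749.8 units and Snrpa1 a mean of 113.3. The U1 proteins were low, with means of 13.5 for Snrpa and 17.3 for Snrpc. Snrpc had 13.5 and 20.1 units in CBR+SAM, 16.2 and 16.3 in CBR, and 18.4 and 19.2 in DMSO zygotes. CBR and DMSO values of Snrpc did not overlap, whereas the CBR+SAM values lay on both sides of them.

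SF3A and SF3B each combined a high and a low subunit. Sf3b1, the scaffold that closes around the branch site, had 166.2 and 123.7 units in CBR+SAM, 161.9 and 159.7 in CBR, and 147.1 and 163.9 in DMSO zygotes. Sf3b5, a small subunit of the same complex, had 4.63 and 6.90 units in CBR+SAM, 3.57 and 5.72 in CBR, and 4.24 and 7.48 in DMSO zygotes. Sf3b1 exceeded Sf3b5 by 17.9 to 45.4-fold. In every group the second replicate of Sf3b5 was the higher.

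In SF3A the low member was Sf3a2. The levels of Sf3a3 ran from 85.1 to 96.8 units over the 6 libraries. Sf3a2 had 3.53 and 1.75 units in CBR+SAM, 4.02 and 4.01 in CBR, and 2.74 and 4.51 in DMSO zygotes, so that Sf3a3 stood 21 to 49.6-fold above it. An exon of Sf3a2 overlaps Plekhj1 on the opposite strand, which was listed at 38.0 to 51.9 units, and the protocol does not mark strand. Exons of other members overlap listed genes on the opposite strand too, among them Srsf2 (Mfsd11 and Mettl23), Prpf39 (Fkbp3), Sf3b3 (Cog4) and Hnrnpk (Rmi1). Those of Hnrnpm overlap March2 on the same strand. How reads were divided over these overlaps was not tested.

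U2AF recognises the 3′ splice site through its large subunit, U2af2, which reads the polypyrimidine tract, and its small subunit, U2af1, which reads the AG. U2af1 had 42.6 and 46.0 units in CBR+SAM, 46.1 and 60.5 in CBR, and 42.9 and 59.1 in DMSO zygotes. U2af2 had 9.24 and 12.5 units in CBR+SAM, 8.99 and 7.83 in CBR, and 9.49 and 9.04 in DMSO zygotes. The small subunit exceeded the large one by 3.69 to 7.72-fold. For U2af2 both CBR values were the lowest of the 6, and for U2af1 the CBR+SAM values lay just below the CBR values, with log2 changes of 0.32 (SE 0.20) and -0.25 (SE 0.21) in CBR+SAM against CBR.

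U2af1l4, a paralog of the small subunit, was listed above both at 153.8 to 185.1 units. Its exons overlap Psenen on the opposite strand, a gamma-secretase subunit gene that had 810.2 and 1215 units in CBR+SAM, 819.9 and 913.9 in CBR, and 823.5 and 853.2 in DMSO zygotes. Without strand information, reads of the 2 genes over shared exons cannot be told apart, so the level of U2af1l4 is uncertain.

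The PRPF proteins join the U4/U6.U5 tri-snRNP or associated complexes, and Prpf8 was among the lowest of them. Prpf8, the large U5 protein that cradles the catalytic RNA, had 2.90 and 4.08 units in CBR+SAM, 3.19 and 2.57 in CBR, and 3.23 and 3.55 in DMSO zygotes. Prpf6, which bridges U5 with U4/U6, had 149.1 and 87.2 units in CBR+SAM, 161.9 and 155.2 in CBR, and 131.6 and 128.9 in DMSO zygotes. Prpf6 exceeded Prpf8 by 21.4 to 60.3-fold.

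Other Prpf genes covered a similar span. Prpf4, a U4/U6 protein, had the lowest mean of the tested members (0.931 units), and Prpf3, its partner, had a mean of 14.4. Prpf31, another U4/U6 protein, had a mean of 7.59. Prpf19, the ubiquitin ligase of the activated spliceosome, had a mean of 3.38 and a range of 2.77 to 3.98. Prpf38a, whose yeast counterpart is needed to activate the spliceosome, led the family with 134.6 to 173.3 units.

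The SR proteins were led by Srsf3, Srsf7 and Srsf10, with means of 129.3, 109.0 and 107.2 units. Srsf3, among the smallest SR proteins and also an export adaptor, had 129.0 and 121.6 units in CBR+SAM, 120.1 and 137.1 in CBR, and 139.9 and 127.8 in DMSO zygotes. Srsf1, a general splicing activator, was lower at 15.0 to 23.7 units. Srsf2, which stays in the nucleus, had 33.8 and 34.1 units in CBR+SAM, 31.3 and 32.7 in CBR, and 40.7 and 37.1 in DMSO zygotes. All DMSO values of Srsf2 lay above all values of the other groups.

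The hnRNP genes were led by Hnrnpc, which binds uridine tracts and covers cryptic splice sites. It had 644.7 and 567.1 units in CBR+SAM, 608.5 and 724.7 in CBR, and 583.5 and 687.9 in DMSO zygotes. Hnrnpk, a poly(C)-binding protein, had 370.1 and 160.3 units in CBR+SAM, 314.7 and 345.5 in CBR, and 299.5 and 344.9 in DMSO zygotes. Its second CBR+SAM library was far below the other 5 and its first was the highest of all, while the CBR and DMSO values overlapped.

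Further down the family, Hnrnpa1 and Hnrnpa2b1, which commonly repress exons, had means of 216.6 and 143.5 units. Hnrnpu, a nuclear scaffold protein, had 43.2 and 60.3 units in CBR+SAM, 45.2 and 39.6 in CBR, and 40.3 and 42.5 in DMSO zygotes. Hnrnpl, which binds CA repeats, had 8.87 and 15.8 units in CBR+SAM, 10.7 and 8.55 in CBR, and 10.3 and 9.02 in DMSO zygotes. Both genes had their highest value in the second CBR+SAM library. The lowest of the family were Hnrnpul1, Hnrnpll and Hnrnpa0, with means of 4.11, 2.39 and 1.95 units.

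The level of several members depends on how reads were divided with near-identical records, mostly processed pseudogenes, that the table also lists. Records aligned over at least 100 bases and 50% of their length at 95% identity or more were found for 22 members, 87 records in all. For 6 members these records reached 5% of the member's own mean. The most affected was Snrpf, for Sm protein F, where the processed pseudogene Gm13092 was listed higher than the gene itself.

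Snrpf had 257.4 and 317.3 units in CBR+SAM, 229.3 and 268.4 in CBR, and 222.4 and 226.8 in DMSO zygotes. Gm13092 had 788.4 and 992.1 units in CBR+SAM, 785.2 and 833.3 in CBR, and 761.9 and 713.3 in DMSO zygotes. The 260-base Gm13092 record differed from Snrpf at 4 positions, counted from its own first base with the Snrpf base given first: G2C, C26T, A34G and G38A. Within the record only these 4 positions separate the reads of the 2 records, while the rest of the 861-base Snrpf transcript also does so. Bases 16 to 48 of the record hold 3 of the 4 positions, shown in capitals in the coding part of Snrpf (chr10:93583029-93589706, minus strand).
Snrpf: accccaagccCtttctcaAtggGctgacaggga
Gm13092: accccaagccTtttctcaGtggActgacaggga

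Snrpg, for Sm protein G, shared a 231-base record, Gm8186, at 100% identity over its whole length. Gm8186 had 849.6 and 1133 units in CBR+SAM, 947.3 and 982.9 in CBR, and 850.9 and 822.3 in DMSO zygotes, while Snrpg itself had 1029 and 1393 units in CBR+SAM, 1130 and 1114 in CBR, and 1065 and 909.0 in DMSO zygotes. Where a record is identical over its length, its reads cannot be assigned by sequence alone. Summed with its 3 records, Snrpg had 1879 and 2526 units in CBR+SAM, 2078 and 2099 in CBR, and 1918 and 1732 in DMSO zygotes. Such sums, here and below, add units divided by each record's own length. They are not the gene's level with those reads assigned to it.

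For 2 other members the division varied from library to library. Gm10052, identical to Hnrnpa1 over 960 bases, was listed at 54.0 and 0 in CBR+SAM, 5.60 and 42.9 in CBR, and 12.6 and 32.1 in DMSO zygotes. Gm9761, 99.6% identical to Srsf3 over 492 bases, was listed at 25.6 and 0 in CBR+SAM, 8.35 and 35.7 in CBR, and 4.18 and 23.8 in DMSO zygotes. Both pseudogenes had their highest values in the same 3 libraries and were at 0 in the second CBR+SAM library. With all its 12 records added, Hnrnpa1 had 254.6 and 225.5 units in CBR+SAM, 210.8 and 290.4 in CBR, and 206.6 and 261.3 in DMSO zygotes.

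The remaining members past 5% were Hnrnpa3 and Snrpd2. Gm5641 matched Hnrnpa3 over 1488 bases and was listed at 71.6 to 118.8 units, beside 118.3 to 182.2 for the gene. Gm10120 matched Snrpd2 over 357 bases and had 1.57 and 2.09 units in CBR+SAM, 0.122 and 0.0410 in CBR, and 0.0683 and 0.422 in DMSO zygotes. Added to Snrpd2, this gave 5.94 and 7.43 units in CBR+SAM, 4.48 and 4.31 in CBR, and 5.85 and 6.88 in DMSO zygotes, so the CBR values were the lowest with and without the records. For every other member the records, where any were found, stayed under 5% of its mean.

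**Figure D2:**
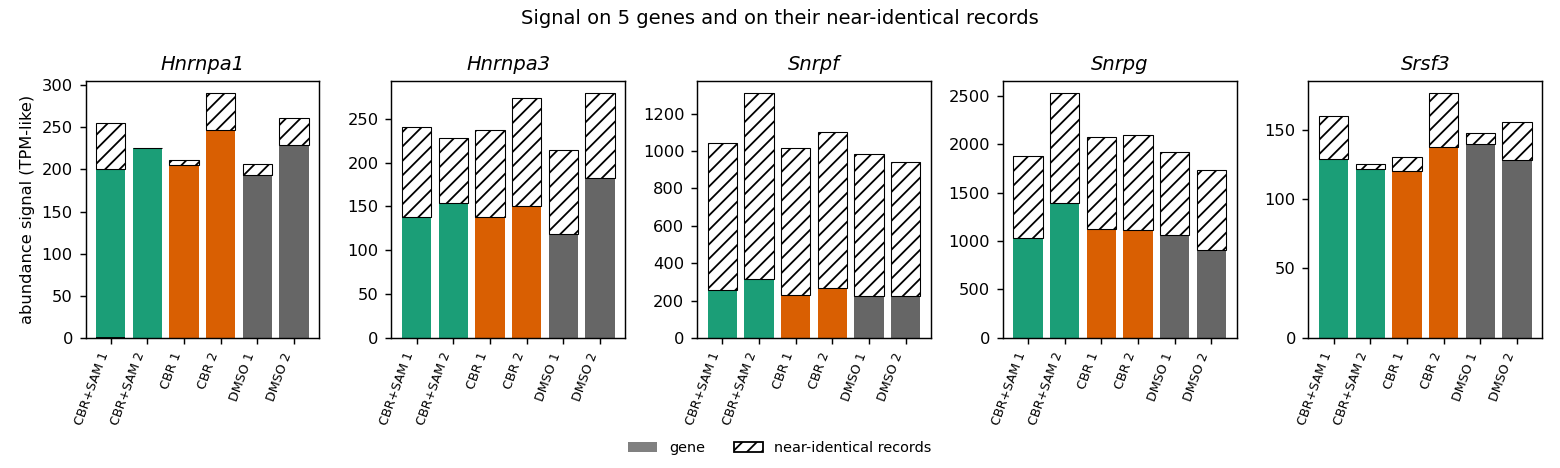
Abundance signal of 5 members (filled bars, coloured by group) with the signal listed on their near-identical records stacked on top (hatched), per library. The records exceed the gene for Snrpf in all 6 libraries, and for Hnrnpa1 they vary from 0.113 to 54.5 units.

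The comparison of CBR with DMSO zygotes asks how inhibited serine metabolism altered these transcripts. None of the 66 tested members was called in CBR zygotes (limma, adjusted p under 0.05), where 0% of 12249 tested genes were called. At an unadjusted p under 0.05 there were also 0 members, beside 260 genes (2.12%). With either CBR+SAM library left out of the shared estimate of spread, Prpf6 and Snrpd2 were under that level, beside 541 genes without replicate 1 and 538 without replicate 2. Levels were higher in CBR zygotes for 32 members and lower for 34, with a median log2 change of -0.01, the same as over all tested genes. The CBR and DMSO values did not overlap for 23 of 66 members, 9 higher and 14 lower in CBR, beside 33.0% of all tested genes.

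The smallest unadjusted p belonged to Snrpd2, with the values given above: its log2 change was -0.42 (SE 0.19, 95% interval -0.86 to 0.02, limma adjusted p = 1.0). It is named outside the rule on levels because it led the list. Among members with a mean of at least 10, Srsf2 had the smallest p, with a log2 change of -0.27 (SE 0.15, interval -0.62 to 0.07, limma adjusted p = 1.0). Of the other members at that level that were lower in both CBR libraries than in both DMSO libraries, Prpf38a had the smallest p, with 134.6 and 147.8 units in CBR against 151.2 and 173.3 in DMSO zygotes and a log2 change of -0.20 (SE 0.15). Srsf11, Snrpa1 and Hnrnph2 followed, with log2 changes of -0.18, -0.13 and -0.20.

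In the other direction, Sf3a1, the SF3A subunit that contacts the U1 snRNP, had 34.0 and 34.1 units in CBR against 27.3 and 28.8 in DMSO zygotes. Its log2 change was 0.27 (SE 0.20, interval -0.21 to 0.75, limma adjusted p = 1.0). The CBR values of Prpf6 were also both above its DMSO values, with a log2 change of 0.28 (SE 0.24, limma adjusted p = 1.0). Snrpg, Snrpf and Srsf4 followed with log2 changes of 0.19, 0.14 and 0.14, and none passed the test.

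CBR+SAM against CBR asks what added S-adenosylmethionine altered in the presence of the inhibitor. No tested member was called by limma, where 1 gene of the table was (0.00816%), and 0 members had an unadjusted p under 0.05 beside 378 genes (3.09%). Again 32 members were higher and 34 lower, with a median log2 change of -0.05 for members and 0.01 for all tested genes. Values did not overlap for 22 members, 11 in each direction, beside 27.5% of all tested genes.

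Sf3a1 had the smallest p of this comparison, with 30.9 and 20.8 units in CBR+SAM against 34.0 and 34.1 in CBR zygotes. Its log2 change was -0.41 (SE 0.20, interval -0.89 to 0.07, limma adjusted p = 0.988). For Prpf6 the change was -0.47 (SE 0.24, interval -1.04 to 0.10, limma adjusted p = 0.988). Both genes were lowest in the second CBR+SAM library, while the first lay close to the CBR values. All 3 Sf3a genes were lower in both CBR+SAM libraries than in CBR zygotes, Sf3a3 by a log2 change of -0.11 and Sf3a2 by -0.51 (SE 0.30).

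Prpf4b, a kinase that phosphorylates tri-snRNP proteins, had 16.1 and 12.7 units in CBR+SAM against 16.6 and 20.0 in CBR zygotes, a log2 change of -0.33 (SE 0.19, limma adjusted p = 0.988). Prpf38b, a paralog of Prpf38a, and Srsf1 were also lower in both CBR+SAM libraries, each by a log2 change of -0.30. Separate groups in the other direction were found, among members averaging 10 units or more, for Sf3b6, Sf3b3, Prpf38a and Srsf2. Sf3b6, the subunit that touches the branch-site adenosine, had 49.4 and 74.7 units in CBR+SAM against 45.4 and 48.2 in CBR zygotes, a log2 change of 0.37 (SE 0.21, limma adjusted p = 0.988). Sf3b3, Prpf38a and Srsf2 were higher by log2 changes of 0.22, 0.17 and 0.08.

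CBR+SAM against DMSO sets the combined treatment against the solvent and shares libraries with both comparisons above. No tested member was called by limma, beside 1 gene of the table (0.00816%), and 0 members had an unadjusted p under 0.05 beside 262 genes (2.14%). There were 26 members higher and 40 lower in CBR+SAM, with a median log2 change of -0.06 for members, against 49.0% of all tested genes higher and a median of 0. Values did not overlap for 15 members, 5 higher and 10 lower, beside 24.5% of all tested genes. When the columns were rescaled to the same sum, 16 members were higher and the medians were -0.14 for members and -0.08 for all tested genes. The balance rested on single libraries: 34 members were higher without DMSO replicate 2 (median 0.02), 32 without CBR+SAM replicate 2, and 21 without DMSO replicate 1 (median -0.12).

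Snrpf led this comparison, with the values given above, a log2 change of 0.35 (SE 0.16, interval -0.04 to 0.73, limma adjusted p = 1.0). With Gm13092 added it had 1046 and 1309 units in CBR+SAM against 984.3 and 940.1 in DMSO zygotes, so the groups did not overlap with or without the record. Hnrnpu, Sf3b3 and Prpf18, a second-step splicing factor, were the other members with a mean of at least 10 that were higher in both CBR+SAM libraries, by log2 changes of 0.30, 0.15 and 0.06.

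On the lower side stood Prpf39, a U1-associated protein in yeast, with 12.5 and 13.3 units in CBR+SAM against 15.3 and 18.2 in DMSO zygotes. Its log2 change was -0.35 (SE 0.19, interval -0.81 to 0.11, limma adjusted p = 1.0). Snrpa, Srsf2, Srsf9 and Sf3b4 were lower in both CBR+SAM libraries by log2 changes of -0.22, -0.19, -0.22 and -0.23. Srsf2 was thus below its DMSO values in both treated groups, which were compared with the same DMSO libraries.

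**Figure D3:**
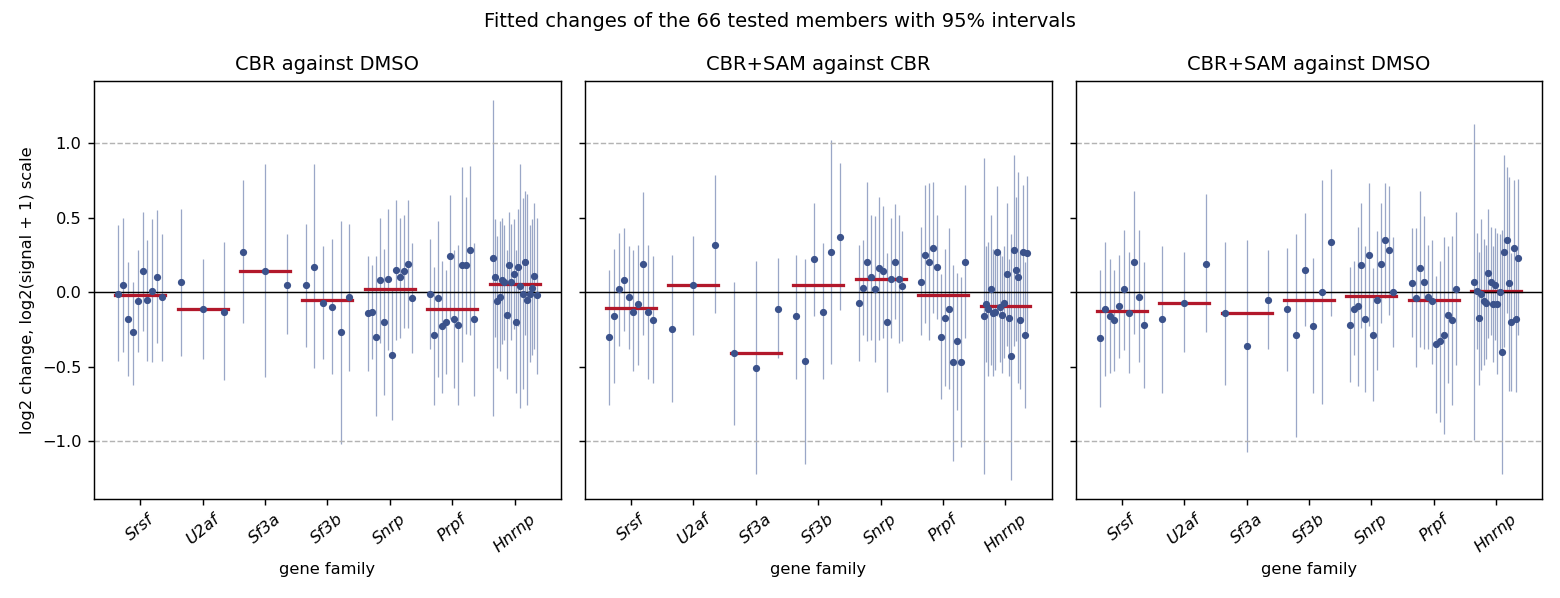
Fitted log2 changes of the 66 tested members on the log2(signal + 1) scale by family in the 3 comparisons, with 95% intervals as vertical lines and the family median as a red bar; dashed lines mark 2-fold. The interval of every member includes 0, and family medians lie between -0.14 and 0.14 except for the 3 Sf3a genes in CBR+SAM against CBR (-0.41).

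The intervals give the sizes of change that remained possible with these 6 libraries. In CBR against DMSO, the 95% interval lay within 2-fold of signal + 1 in either direction for 64 of 66 members. The same held for 59 members in CBR+SAM against CBR and for 63 in CBR+SAM against DMSO. For members with low levels, such an interval still allows a change of more than 2-fold in the signal itself. Among the 53 members with a mean of at least 10, the interval passed 2-fold in CBR+SAM against CBR for 4 members, Hnrnpk, Prpf6 and Sf3b2 among them, in CBR+SAM against DMSO for Hnrnpk, and in CBR against DMSO for none. With 2 libraries per group, changes of any size inside these intervals remained compatible with the values. An interval that includes 0 does not show that levels were equal. The intervals hold for single genes and are not adjusted for the number of genes tested.

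The summed levels of the larger families were also compared by library. The Snrp genes summed to 5583 and 6982 units in CBR+SAM, 5889 and 5906 in CBR, and 5686 and 5249 in DMSO zygotes. The Hnrnp genes summed to 2044 and 1782 units in CBR+SAM, 1969 and 2165 in CBR, and 1851 and 2161 in DMSO zygotes. The Prpf genes summed to 558.5 and 444.6 units in CBR+SAM, 554.0 and 579.8 in CBR, and 519.8 and 560.1 in DMSO zygotes. In each of these families the second CBR+SAM library was at an edge, with the highest sum for Snrp and the lowest for Hnrnp and Prpf.

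That library held the extreme value of many members. It had the highest value of 17 tested members and the lowest value of 21, where it was the highest for 29.3% and the lowest for 27.7% of all tested genes. Between the CBR+SAM libraries, 11 of 53 members with a mean of at least 10 differed by more than 0.5 on the log2 scale (20.8%), beside 26.3% of all genes at that level. In CBR zygotes it was 1 member, beside 6.21% of all genes, and in DMSO zygotes 2 members, beside 5.84%. The SD of the difference over the 53 members was 0.42 in CBR+SAM, 0.21 in CBR and 0.23 in DMSO zygotes.

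Members low in that library included Hnrnpk, Prpf6 and Sf3b2, and members high in it included Snrpe, Snrpg, Snrpd1, Sf3b6 and Hnrnpul2. Hnrnpk was lower by 1.20 on the log2 scale than in the first CBR+SAM library. Sf3b2, an SF3B subunit near the branch site, had 76.9 and 42.4 units in CBR+SAM, 91.6 and 68.6 in CBR, and 76.6 and 64.2 in DMSO zygotes. Both genes were lowest in the second CBR+SAM library. Hnrnpul2 had 21.1 and 33.3 units in CBR+SAM, and 22.0 to 22.8 in the CBR and DMSO libraries.

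Split by transcript length, the difference of the second from the first CBR+SAM library had a median of 0.30 over 11 members of up to 1500 bases and of -0.25 over 21 members of more than 3000 bases. Over 5475 genes with a mean of at least 10 these medians were 0.15 and -0.09. Spearman's rho between length and that difference was -0.34 across the 53 members in CBR+SAM, -0.20 in CBR and 0.05 in DMSO zygotes, and -0.15, -0.17 and -0.08 across the 5475 genes. These are descriptions across genes of the same libraries, which are not independent. The part of transcript length in the values of single members was not tested.

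**Figure D4:**
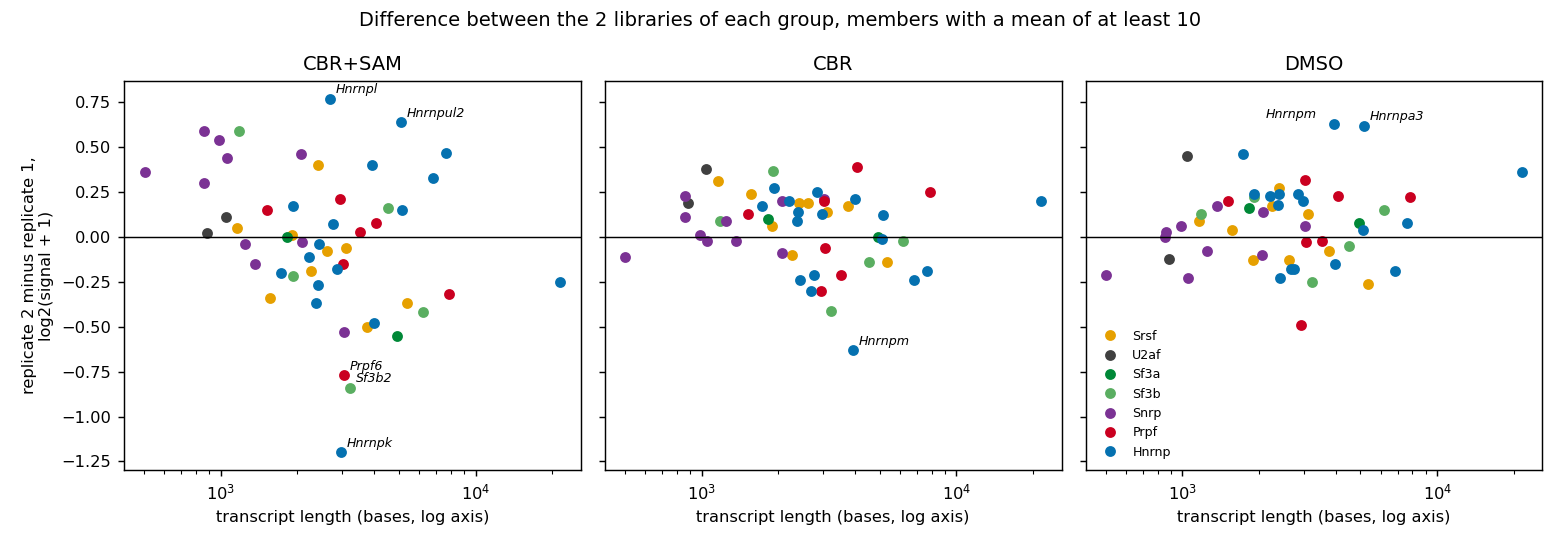
Difference between the second and the first library of each group, on the log2(signal + 1) scale, against transcript length on a log axis, for the members with a mean of at least 10 (53 less 1 not reported here), coloured by family. The spread is widest in CBR+SAM (SD 0.42), where Hnrnpk lies at -1.20 and Hnrnpl at 0.77.

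Without the second CBR+SAM library most of the differences named for that group shrank. Sf3a1 then differed between CBR+SAM and CBR by -0.14 in place of -0.41 on the log2 scale. For Prpf6 the value was -0.09 in place of -0.47, and for Sf3b6 it was 0.08 in place of 0.37. Hnrnpk had the opposite sign, at 0.17 in place of -0.43. Against DMSO zygotes, Snrpf differed by 0.20 in place of 0.35 and Hnrnpu by 0.06 in place of 0.30, whereas Prpf39 differed by -0.39 beside -0.35. The fit without this library called 0 members in either comparison, with unadjusted p under 0.05 for 0 members against CBR, beside 472 of 12249 genes, and for 1, Snrpc, against DMSO, beside 401 genes.

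Without the first CBR+SAM library, so that the second stood alone for its group and was taken to vary like the others, 20 members had an unadjusted p under 0.05 against CBR and 18 against DMSO. All genes at that level numbered 2369 and 2044. The lowest adjusted p of a member was then 0.0772 against CBR and 0.122 against DMSO (limma), so none was called.

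**Figure D5:**
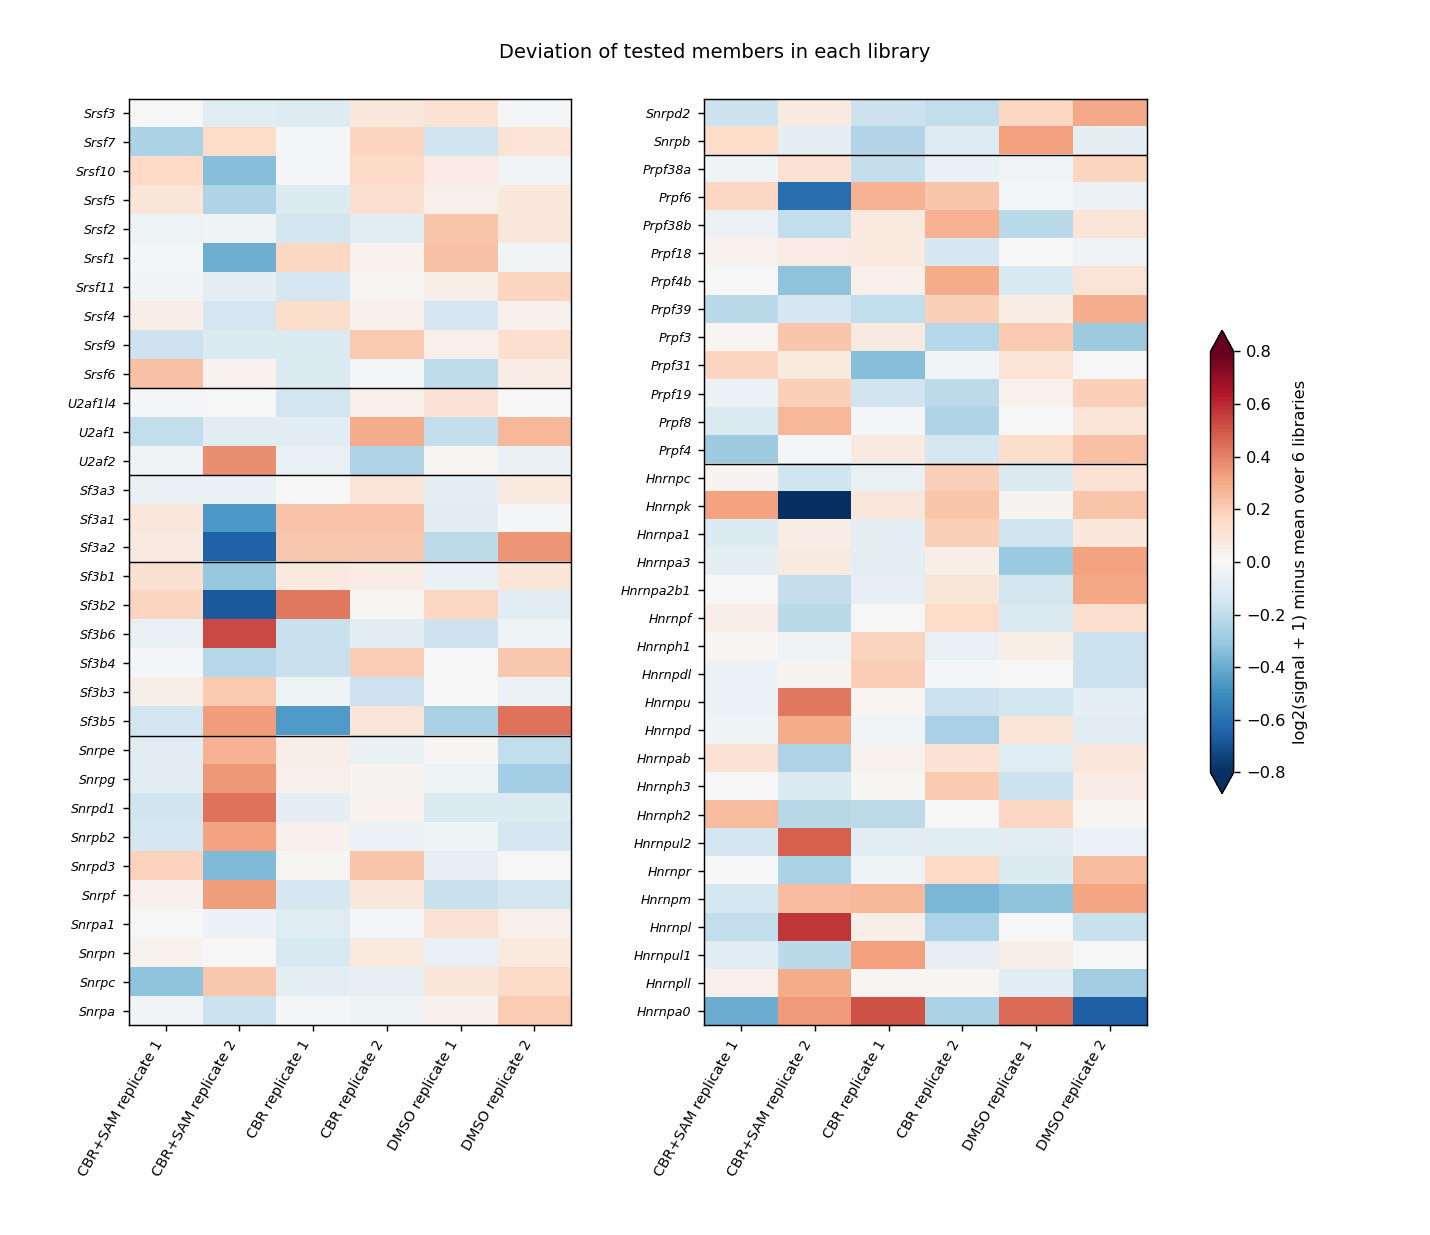
Deviation of each tested member (66 less 1 not reported here) from its own mean over the 6 libraries, on the log2(signal + 1) scale, with families separated by black lines and members ordered by level within a family. The second CBR+SAM column holds most of the strong colours, as for Hnrnpk, Sf3b2 and Prpf6 (low) and Hnrnpl and Sf3b6 (high).

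The order of the 2 replicates was the same in every group for some members, though some of the differences were very small. For Snrpd1, for example, the DMSO replicates had 868.3 and 869.5 units. Replicate 2 was above replicate 1 in all 3 groups for 12 members (18.2%), beside 16.9% of all tested genes. These were Hnrnpa1, Hnrnpa3, Prpf38a, Prpf39, Sf3b5, Sf3b6, Snrpc, Snrpd1, Snrpf, Srsf7, Srsf9 and U2af1. It was below in all groups for 5 members (7.58%), beside 15.7% of all tested genes, namely Hnrnph1, Hnrnpul1, Prpf6, Sf3b2 and Srsf1. Hnrnpm, which among members with a mean of at least 10 had the largest difference between replicates in CBR and in DMSO zygotes, had 10.6 and 14.2 units in CBR+SAM, 14.4 and 8.92 in CBR, and 9.24 and 14.9 in DMSO zygotes, in no constant order.

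Genes of the splicing pathway outside these families were examined as 7 lists: other snRNP proteins, branch-site and A-complex factors, tri-snRNP and catalytic factors, Sm-like proteins, snRNP assembly and Sm methylation, exon junction and mRNA coat proteins, and SR kinases with other regulators. They hold 149 genes, of which 138 were tested. None was called in any of the 3 comparisons (limma). Before adjustment, p was under 0.05 for 4 of them in CBR against DMSO (3 higher in CBR, 1 lower). In CBR+SAM against CBR it was so for 2 higher and 1 lower, and in CBR+SAM against DMSO for 0 higher and 1 lower. The same shares over all tested genes were 2.12% for CBR against DMSO, 3.09% for CBR+SAM against CBR, and 2.14% for CBR+SAM against DMSO.

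Lsm6, a subunit of the Sm-like ring on U6 RNA, had 132.8 and 134.9 units in CBR+SAM, 104.4 and 105.5 in CBR, and 138.4 and 132.9 in DMSO zygotes. Its CBR values were the lowest, with a log2 change of -0.37 against DMSO (SE 0.13, limma adjusted p = 1.0) and of 0.35 in CBR+SAM against CBR (limma adjusted p = 0.988). Prmt5, the methyltransferase that uses S-adenosylmethionine to methylate arginines of Sm proteins B, D1 and D3, had 3.41 and 3.78 units in CBR+SAM, 4.31 and 5.58 in CBR, and 2.76 and 3.35 in DMSO zygotes. Both CBR values were above the others, with a log2 change of 0.55 against DMSO (SE 0.21, limma adjusted p = 1.0). Rbm8a, an exon junction core protein, had 65.4 and 77.4 units in CBR+SAM against 46.6 and 52.0 in CBR zygotes, a log2 change of 0.52 (SE 0.16, limma adjusted p = 0.988). Lsm6, Prmt5 and Rbm8a were picked for the smallest unadjusted p in their list and direction. In CBR against DMSO the median log2 change was -0.01 for the list of Lsm6 and -0.02 for that of Prmt5. For the list of Rbm8a it was -0.05 in CBR+SAM against CBR.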

How the data were processed

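The authors deposited 1 abundance signal per gene and library for 36065 genes. Per the submitters' processing notes, the tools were fastp, kallisto and DESeq2 and the build mm10 (versions and roles not given); per the labels' protocols cDNA was made with SMART-Seq v4 and libraries with Nextera XT, without strand marking or molecular identifiers described. The deposited signal resembles TPM rescaled in a way that no source used here states, so no count test was run. The kit primes from poly(A) tails, so tail length can affect the levels.

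Symbols and transcripts came from GENCODE M21. Signals were tested as log2(signal + 1), which understates changes of low genes, for 12249 genes with at least 1 unit in at least 2 libraries, with limma 3.58.1 in R 4.3.3 (all 6 libraries, mean-variance trend, 3 residual degrees of freedom, Benjamini-Hochberg over all tested genes, threshold 0.05). The procedure was also run on simulated data with the same spread for all genes and no library that stood apart, unlike the data here. Near-identical records were found with blastn 2.17.0. Members and lists were chosen with earlier results of these data known. Text names the 3 highest members per family, members of known role, up to 5 per direction and comparison with the smallest p among members averaging 10 units or more whose groups were apart, the largest replicate differences, and untested members; Snrpd2, the members whose records reach 5% of their mean, and further members described by role were added after their values were seen. The values of 1 member are not reported here; it stays in the counts, sums and medians.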

Additional observations from a re-analysis of the deposited data

How the results depend on the processing

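No member was called in any comparison under any alternative run: pseudocount 0.1, no filter, a mean of at least 10, median-of-ratios scaling, equal column sums, protein-coding genes alone, the 4 libraries of a comparison, library precision weights, the replicate block, and each library left out. Over the whole table, CBR against DMSO called 0 genes, and 1 with 4 libraries (0 to 2 with 1 library left out). CBR+SAM against CBR called 1, and 0 with pseudocount 0.1, with no filter, with a mean of at least 10 and with protein-coding genes alone (0 to 9 with 1 library left out, 9 without CBR+SAM replicate 1). CBR+SAM against DMSO called 1, and 0 with those 4 settings and with 4 libraries (0 to 3 with 1 library left out, 3 without DMSO replicate 2; leaving out CBR+SAM replicate 1 gave 2). With 1 library left out, the median log2 change of members ranged from -0.05 to 0.03 in CBR against DMSO, -0.05 to 0.03 in CBR+SAM against CBR (0.03 without CBR replicate 2) and -0.12 to 0.02 in CBR+SAM against DMSO. The cause of these shifts was not tested. Equal column sums left 29, 28 and 16 members higher in CBR against DMSO, CBR+SAM against CBR and CBR+SAM against DMSO. Of 700 values per comparison for 47 of the named members, 44, 30 and 48 had the opposite sign to the value reported, none called. Snrpd2 was not among these members. Many of the 700 values could not change sign. With no filter, a mean of at least 10, protein-coding genes alone, the replicate block, the 4 libraries or library weights, the log2 changes equal those reported. The same holds where the library left out belongs to neither group of the comparison. The share of opposite signs among all values is therefore not a measure of stability. In CBR against DMSO, 3 of the values moved by more than the SE. In CBR+SAM against CBR 40 did so, and in CBR+SAM against DMSO 43 did so. Same-numbered libraries deviated together with correlations of 0.12 to 0.599 over 5939 genes, but with 2 pairs per comparison the numbers were not taken to pair the samples. With the replicate block, 0 members were called, 0, 1 and 1 genes were called in the 3 comparisons, and Sf3b2 (CBR+SAM against CBR) and Snrpf (CBR+SAM against DMSO) had an unadjusted p under 0.05. With the 4 libraries of CBR against DMSO, Prpf6 and Snrpd2 did, beside 543 genes. In the same comparison with no filter, Srsf2 and Snrpd2 did, beside 882 of 26034 genes. Snrpd2 also did with equal column sums, beside 296 genes, and with library precision weights, beside 548 genes. Low members were the least certain, and depth is known only approximately.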

Other observations

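Further genes of the pathway lists had an unadjusted p under 0.05. Pcbp4, a poly(C)-binding protein, had 0.043 and 0.807 units in CBR+SAM, 1.68 and 2.03 in CBR, and 0.387 and 0.650 in DMSO zygotes, with log2 changes of -1.05 in CBR+SAM against CBR (limma adjusted p = 0.988) and 0.91 in CBR against DMSO (limma adjusted p = 1.0). Srrm2, a scaffold of nuclear speckles, had 161.6 and 142.6 units in CBR against 104.3 and 126.3 in DMSO zygotes, a log2 change of 0.40 (limma adjusted p = 1.0). Lsm4, another Sm-like subunit, had 2.03 and 1.98 units in CBR+SAM against 2.77 and 6.19 in DMSO zygotes, a log2 change of -0.79 (limma adjusted p = 1.0).

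Snrpert, a processed pseudogene with 98.9% identity to Snrpe over 279 bases, was listed at 2.39 and 0.394 in CBR+SAM, 1.36 and 1.55 in CBR, and 0 and 0 in DMSO zygotes. These values are small beside the 1707 to 2374 units of Snrpe, and the division of reads between the 2 records was not tested.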
